A study of Mus musculus with 8 samples.

Results

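Caveolae are small flask-shaped pits of the plasma membrane, and the 6 genes described here encode their core proteins. The members were chosen by symbol: Cav1 and Cav2 (caveolins), Cavin1, Cavin2 and Cavin3 (cavins), and Ehd2. All 6 were found among the 11447 gene identifiers of the tables. They were measured by droplet-based RNA sequencing of single cells (Chromium, 10x Genomics) in GFP-sorted smooth muscle cells from ascending aortas of mice. The 8 libraries came from Apoe-/- mice (called Apoe) and from Apoe-/- mice that also carry a knockout of Tgfbr2, a TGF-beta receptor, in smooth muscle (labelled TGFBetaRiSMC-Apoe, called KO). Apoe deficiency is thus shared by all libraries. Each genotype was sampled on the diet labelled ND and after 1, 2 and 4 months of high fat diet (1M, 2M and 4M), with 1 library per genotype and diet. The age of the mice, the number of mice in a library and the driver of the knockout are not given in the sources used here.

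Caveolin 1 inserts into the inner leaflet of the membrane, forms oligomers with caveolin 2 and is required for caveolae in smooth muscle. Cavin 1 coats the caveolin scaffold from the cytoplasm and is required for the pits to form, while cavins 2 and 3 join this coat. EHD2 is an ATPase at the neck of the pit that holds it at the cell surface. Vascular smooth muscle is rich in caveolae, which buffer membrane stretch and gather receptors, channels and pumps. TGF-beta receptors are known to traffic partly through caveolin-positive membrane.

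The libraries held 1127 to 2659 cells, 13056 in all, with 9407155 to 19719335 unique molecular identifiers (UMIs) each. Pairs of libraries shared at most 9 cell barcodes. In a library, a gene seen in fewer than 5% of cells is listed at 0, which is not a measured absence. Tgfbr2 is not in the tables that hold both genotypes, per their names. In the time courses it was listed with 582, 588, 774 and 514 UMIs in the Apoe libraries and had no column in the KO table. Whether it was taken out there or seen in too few cells cannot be told apart. KO 4M stood apart from the other 7 libraries. There the 14 contractile markers summed to 2448 UMIs per 1000000 UMIs of the library (CPM), against 29747 to 55745 elsewhere. The 12 cartilage markers summed to 36849.5 CPM there, against 4456 in Apoe 4M, 1587 in KO 2M and 45.6 to 98.3 in the other 5. Of 10 endothelial markers, only Pecam1 and Plvap were listed in any library (summed 15.5 to 126 CPM), and Cdh5, Kdr and Vwf were at 0. Plvap, a protein of endothelial caveolar diaphragms, stood at 32.6, 32.2, 37.6 and 45.4 CPM over the Apoe diets and at 92.2, 71.4, 92.3 and 15.5 over the KO diets, so it was higher in KO until 2M and lower at 4M, as Cav1 was. Pecam1 stood at 34.3 to 69.3 CPM in Apoe and at 30.2 to 34.0 in KO up to 2M, and is listed at 0 in KO 4M. The part of endothelial RNA in the members' values was not tested. Of the 5 lymphocyte markers none was listed.

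Cav2 and Cav1 are neighbours on the plus strand of chromosome 6: Cav2 (ENSMUSG00000000058) at chr6:17281185-17289115 ends 17220 bases before Cav1 (ENSMUSG00000007655) at chr6:17306335-17341452. Cavin1 (ENSMUSG00000004044) lies at chr11:100956733-100970887 on the minus strand and Cavin2 (ENSMUSG00000045954) at chr1:51289126-51302960 on the plus strand. Cavin3 (ENSMUSG00000037060, chr7:105480083-105482300) and Ehd2 (ENSMUSG00000074364, chr7:15946958-15967567) are both on the minus strand. All are protein-coding, with coordinates on GRCm38 from GENCODE vM21. The 250 bases before a start site are shown for the neighbours Cav1 and Cav2 and for Cavin2, because the ratio of KO to Apoe was highest for Cav1 on ND and 1M and for Cavin2 at 2M, while Cav2, the neighbour of Cav1, had ratios near 1 at 1M and 2M. The sequences are from RefSeq (GRCm38.p6), plus strand, at chr6:17306085-17306334, chr6:17280935-17281184 and chr1:51288876-51289125.
Cav1: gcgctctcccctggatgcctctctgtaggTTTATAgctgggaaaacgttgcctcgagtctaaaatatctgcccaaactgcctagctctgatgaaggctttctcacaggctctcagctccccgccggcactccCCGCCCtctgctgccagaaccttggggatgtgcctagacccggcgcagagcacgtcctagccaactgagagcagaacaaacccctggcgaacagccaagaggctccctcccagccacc
Cav2: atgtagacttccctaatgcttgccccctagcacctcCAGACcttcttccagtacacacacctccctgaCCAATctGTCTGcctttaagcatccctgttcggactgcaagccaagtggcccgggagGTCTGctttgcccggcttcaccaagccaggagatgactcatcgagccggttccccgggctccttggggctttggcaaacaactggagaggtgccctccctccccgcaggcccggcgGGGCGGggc
Cavin2: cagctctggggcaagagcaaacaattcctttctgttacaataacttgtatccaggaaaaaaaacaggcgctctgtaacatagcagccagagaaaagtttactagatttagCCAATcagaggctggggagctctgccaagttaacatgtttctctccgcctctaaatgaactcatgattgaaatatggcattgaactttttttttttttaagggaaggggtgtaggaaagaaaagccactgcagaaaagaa
Capitals mark matches, on either strand, to 4 motifs: TATAAA (the TATA box), CCAAT (the site of NF-Y), GGGCGG (the core of a GC box) and CAGAC (a short core of SMAD sites). The window before Cav1 holds TATAAA on the minus strand, 221 bases before the start, and GGGCGG on the minus strand, 118 bases before it. A second RefSeq start of Cav1, not shown, has a window at chr6:17307390-17307639 with 2 matches to CAGAC, 243 and 135 bases before that start. The window before Cav2 holds 3 matches to CAGAC, 1 to CCAAT and 1 to GGGCGG, 9 bases before the start. The window before Cavin2, with 40.4% G and C, holds a single CCAAT, 140 bases before the start. Among 32851 windows of 250 bases, TATAAA is in 12.37%, CCAAT in 33.85%, GGGCGG in 32.74% and CAGAC in 42.19%. The CArG box, the site of serum response factor, is in 1.467% of windows and in none of those matched for Cav1, Cav2, Cavin1, Cavin2 and Ehd2. Cavin3 is given by name.

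Both caveolins were higher in KO than in Apoe on ND and lower at 4M. Cav1, the main caveolin, stood at 717, 682, 583 and 377 CPM on ND, 1M, 2M and 4M in the Apoe libraries and at 1581, 1119, 734 and 204 CPM in the KO libraries. The KO libraries were thus above all Apoe libraries until 2M, and KO 4M was below all of them. The ratio of KO to Apoe went from 2.20 (exact 95% interval 2.15 to 2.26) on ND through 1.64 at 1M and 1.26 at 2M to 0.540 (0.516 to 0.566) at 4M. These intervals, and all others below, cover counting error only, since each value comes from 1 library with no replicate. Cav2, its partner in the oligomer, stood at 242, 243, 209 and 150.1 CPM over the Apoe diets and at 294, 254, 228 and 106 over the KO diets. Its genotypes overlapped, with ratios of 1.21, 1.05, 1.09 and 0.708, and at 1M the interval of the ratio (0.998 to 1.1) included 1.

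**Figure D1:**
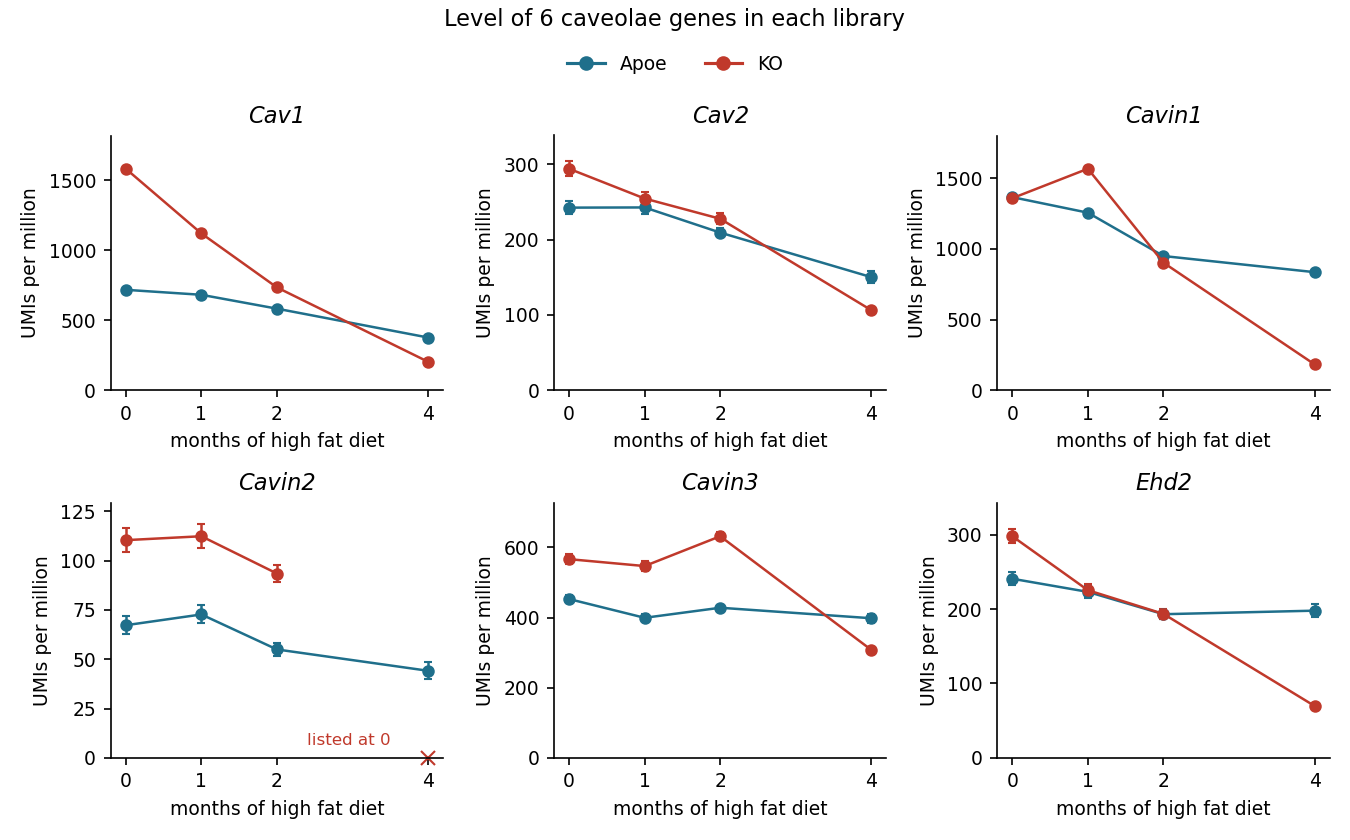
CPM, the UMIs per 1000000 UMIs of the library (y axis), against months of high fat diet (x axis, 0 for ND) for each of 6 genes. Points are single libraries of Apoe (blue) and KO (red), and bars are exact Poisson 95% intervals. Cav1 goes from 1581 to 204 in KO and from 717 to 377 in Apoe, and Cavin2 is listed at 0 in KO 4M (cross).

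The 3 cavins differed among themselves between the genotypes. Cavin1, the coat protein that caveolae need, stood at 1365, 1255, 949 and 835 CPM over the Apoe diets and at 1357, 1565, 902 and 183 over the KO diets. On ND its ratio of KO to Apoe was 0.994 (0.974 to 1.02), where Cav1 was at 2.20, and at 4M it was 4.56-fold lower in KO. Cavin2, which binds phosphatidylserine and helps to shape the pit, stood at 67.2, 72.7, 54.9 and 44.1 CPM over the Apoe diets and at 110.3, 112 and 93.4 in KO on ND, 1M and 2M. Every listed KO value of Cavin2 was above every Apoe value, with ratios of 1.64, 1.55 and 1.70, and KO 4M lists it at 0. Cavin3, a cavin linked to signalling and endocytic traffic, stood at 453, 399, 428 and 398 CPM over the Apoe diets and at 566, 547, 632 and 307 over the KO diets. Its ratio was 1.25, 1.37 and 1.48 on ND, 1M and 2M and 0.773 (0.741 to 0.806) at 4M. Ehd2, at the neck of the pit, stood at 241, 223, 193 and 198 CPM over the Apoe diets and at 298, 225, 193 and 69.7 over the KO diets. Its genotypes differed on ND (ratio 1.24) and at 4M (0.352), while the ratios of 1.01 and 1.00 at 1M and 2M had intervals that included 1.

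**Figure D2:**
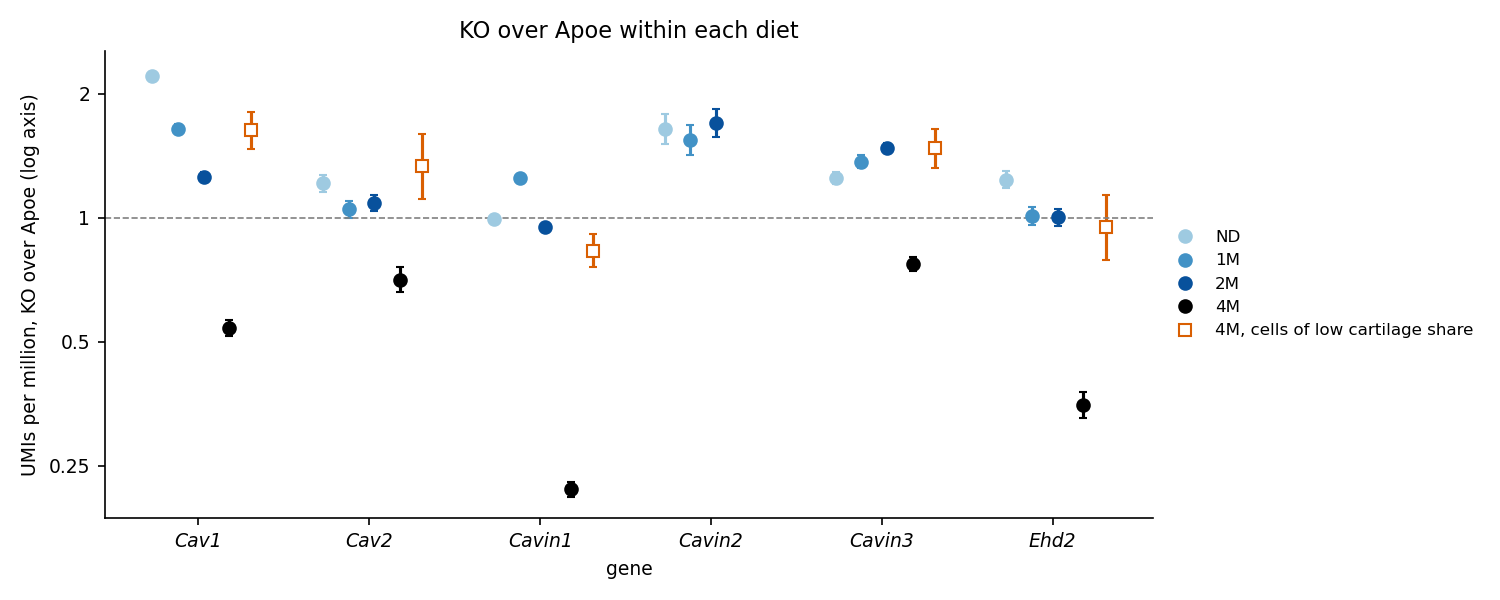
Ratio of CPM in KO over Apoe within each diet (y axis, log scale, dashed line at 1) for each gene (x axis). Filled circles are whole libraries, open squares are 4M cells of low cartilage share, and bars are exact 95% intervals from counting error. Cavin2 has no value at 4M. At 4M Cav1 is at 0.540 over all cells and at 1.63 in cells of low cartilage share.

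Set against all genes, the Cav1 difference on ND was large. On log2(CPM + 1), Cav1 differed by 1.14 on ND, and 99.5% of 9608 genes listed in both libraries had a lower value. Cav1 was the only one of the 6 members higher in KO by at least 1 on this scale on ND, against 0.749% of genes. At 1M and 2M no member was, against 0.76% and 1.16% of genes. At 4M Cavin1 (-2.18) and Ehd2 (-1.49) of the 5 listed members were lower by at least 1, against 17.0% of genes, in a pair where the median of all genes was -0.24. Without the 4M pair, Cav1, Cavin2 and Cavin3 did not overlap between genotypes, with every KO library above every Apoe library. Of 8619 genes listed in these 6 libraries, 15.0% did the same.

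For the test over the 4 diets, limma was fitted to the mean log2 value per library of 9253 genes with diet as a factor, so effects are differences of mean log2 values and not folds. Cav1 was 0.38 ± 0.27 (SE) higher in KO (Benjamini-Hochberg adjusted p = 0.584), Cavin3 0.27 ± 0.10 higher (adjusted p = 0.362) and Cavin2 0.12 ± 0.12 higher (adjusted p = 0.669). Cav2 differed by 0.07 ± 0.06, Cavin1 by -0.31 ± 0.34 and Ehd2 by -0.06 ± 0.15 (adjusted p = 0.644, 0.690 and 0.862). None of the 6 passed the adjusted threshold of 0.05, where 0.151% of all genes did. In limma 0 members had an unadjusted p under 0.05. Without the KO 4M library, Cavin2 was 0.26 ± 0.02 higher in KO and passed (limma adjusted p = 0.0451), in 3 of 3 diets, with Cavin3 at 0.39 (adjusted p = 0.0507) and Cav1 at 0.64 (adjusted p = 0.152). There 0.973% of genes passed as higher in KO. With CPM in place of the deposited values, the fitted Cavin2 difference over the 4 diets was -0.85, since the listing at 0 in KO 4M enters as a value.

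The change with months was the same in sign for all members. In a fit with a slope common to both genotypes, Cav1 fell by 0.44 ± 0.08 per month (limma adjusted p = 0.0407) and Cav2 by 0.18 ± 0.02 (adjusted p = 0.0289). Cavin1 (-0.43 ± 0.10, adjusted p = 0.0601), Ehd2 (-0.18 ± 0.04, 0.0637), Cavin3 (-0.13 ± 0.03, 0.0642) and Cavin2 (-0.14 ± 0.04, 0.0756) did not pass. The 2 members that passed compare with 5.4% of genes called lower. The median slope of the 6 members was -0.18, against -0.01 over all genes tested. Slopes of mean log2 values tend to be small for genes seen in few cells. The members were seen in 38.6% to 95.5% of cells on average, and the genes tested in 5% or more. The calls depend on the scaling: of 14 other settings Cav1 passed in 3 and Cav2 in 4, with adjusted p up to 0.793, and without KO 4M only Cav2 passed (Cav1 adjusted p = 0.0626).

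**Figure D3:**
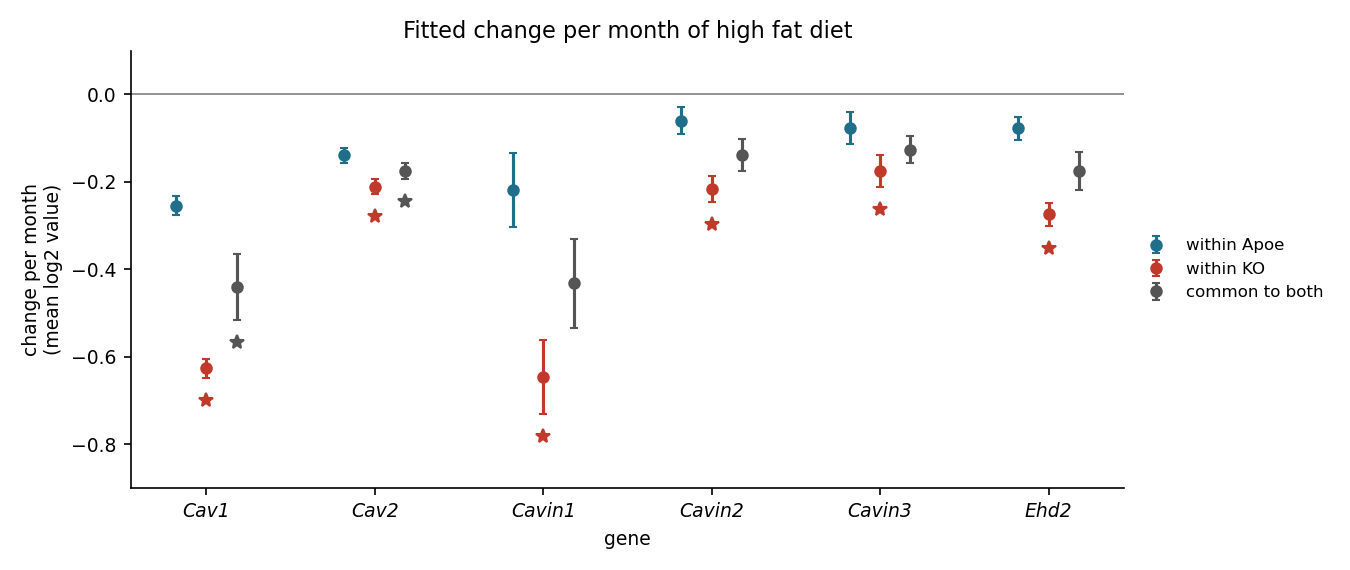
Fitted change of the mean log2 value per month of high fat diet (y axis) for each gene (x axis), with standard errors as bars and stars where the adjusted p is under 0.05. Blue is the slope within Apoe, red within KO and grey the slope common to both. All 18 points are below 0, from -0.65 for Cavin1 in KO to -0.06 for Cavin2 in Apoe.

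Within KO all 6 members fell: Cav1 by 0.63 ± 0.02 per month (limma adjusted p = 0.00353), Cavin1 by 0.65 ± 0.08 (0.0189), Ehd2 by 0.27 ± 0.03 (0.0119), Cavin2 by 0.22 ± 0.03 (0.0203), Cav2 by 0.21 ± 0.02 (0.00982) and Cavin3 by 0.18 ± 0.04 (0.0347). The Cavin2 slope includes the listing at 0 in KO 4M. In the same fit 15.7% of genes were called lower and 6.8% higher. That split was 629 higher against 1455 lower genes, and it was 1063 against 1444 with trimmed-mean factors on CPM and 332 against 1590 with values from the diet tables. None of the members passed when KO 4M, or both libraries of ND, 1M or 4M, were left out, although their slopes stayed below 0. These are slopes of mean log2 values. In CPM, KO libraries before 4M did not all lie below ND. Cavin3 stood at 632 CPM at 2M against 566 on ND, and Cavin1 at 1565 CPM at 1M against 1357 on ND. With adjusted p under 0.05, 6 members passed with the diet tables, 5 with thinned cells and with each CPM scaling, and 2 with the rank of the diet. Cavin3 passed in 4 of 14 other settings, Cav1 and Ehd2 in 9, and Cav2, Cavin1 and Cavin2 in 8. Along the KO diets the contractile sum went from 55745 to 2448 CPM and the cartilage sum from 58.6 to 36849.5 CPM, with 9 of the 12 cartilage markers listed at 0 on ND. Among the KO 4M cells with few cartilage UMIs, described below, Cav1 stood at 655 CPM, against 204 over the whole library and 734 at 2M. The part of the mix of cells in the KO slopes was not tested.

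Within Apoe the slopes were -0.25 ± 0.02 for Cav1, -0.22 ± 0.08 for Cavin1, -0.14 ± 0.02 for Cav2, -0.08 ± 0.04 for Cavin3, -0.08 ± 0.03 for Ehd2 and -0.06 ± 0.03 for Cavin2. None passed (limma adjusted p = 0.171 to 0.497), where 0.0% of genes did and 1165 of 9253 had an unadjusted p under 0.05. As levels, Apoe 4M kept 52.5% of the ND value of Cav1, 61.9% of Cav2, 61.2% of Cavin1, 65.6% of Cavin2, 82.2% of Ehd2 and 87.9% of Cavin3. KO 4M kept 12.9% of Cav1, 13.5% of Cavin1, 23.4% of Ehd2, 36.1% of Cav2 and 54.3% of Cavin3. Of the listed members, Cav1 thus kept least and Cavin3 most in both genotypes, though not always beyond counting error. In KO the intervals of Cav1 (12.4% to 13.3%) and Cavin1 (13.0% to 14.0%) overlapped. In Apoe those of Cavin3 (84.4% to 91.6%) and Ehd2 (77.6% to 87.0%) did. Apoe 4M had the lowest contractile sum of the Apoe libraries (29747 CPM against 41307 to 45295.5). Its cells with few cartilage UMIs held 401 CPM of Cav1, against 583 to 717 in the other Apoe libraries. Those cells had a median of 238 contractile UMIs, against 290 to 408 in the other Apoe libraries. The part of the mix of cells in these levels was not tested. The difference of the slopes was below 0 for each member, from -0.43 for Cavin1 and -0.37 for Cav1 to -0.07 for Cav2. It passed for none (limma adjusted p = 0.215 to 0.295), and 0.0% of genes passed, with 1954 of them and 5 of the 6 members at an unadjusted p under 0.05.

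Ratios of 2 members within a library do not depend on how the library total is set. The UMIs of Cav1 over those of Cavin1 were 0.525, 0.543, 0.614 and 0.451 in Apoe on ND, 1M, 2M and 4M, and 1.16, 0.715, 0.814 and 1.11 in KO. All 4 KO ratios were above all 4 Apoe ratios, also without the 4M libraries (highest Apoe 0.614, lowest KO 0.715). This pair was chosen after its values were seen and has no test. Cav1 over Cav2 stayed between 2.51 and 2.96 in Apoe and went from 5.38 over 4.40 and 3.23 to 1.92 in KO. In the 4M cells of low cartilage share, defined below, it was 3.05 (2.51 to 3.73) in KO and 2.50 (2.34 to 2.67) in Apoe, so the low KO 4M value was not seen in those cells. Cavin3 over Cavin1 was 0.332, 0.318, 0.451 and 0.477 in Apoe and 0.417, 0.349, 0.70 and 1.68 in KO, where the cavin balance at 4M lay far from that of the other 7 libraries.

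**Figure D4:**
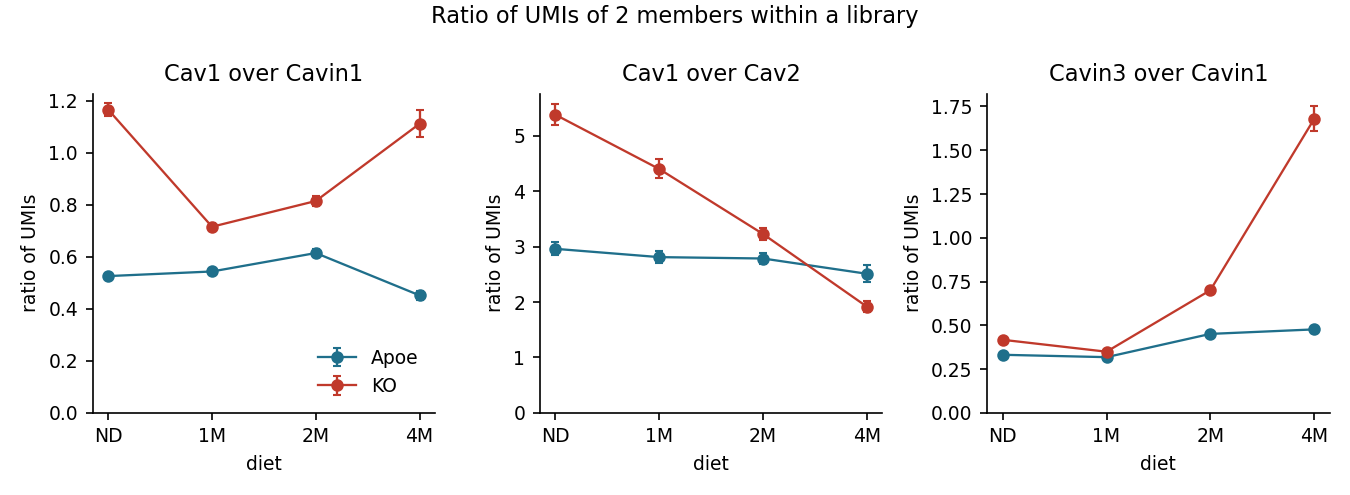
Ratio of the UMIs of 2 genes in the same library (y axis) by diet (x axis) for Cav1 over Cavin1, Cav1 over Cav2 and Cavin3 over Cavin1. Points are single libraries of Apoe (blue) and KO (red), with exact 95% intervals from counting error. KO lies above Apoe in all 4 diets for Cav1 over Cavin1, and Cavin3 over Cavin1 reaches 1.68 in KO 4M.

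The members were also compared among the cells of 1 library, since KO 4M, Apoe 4M and KO 2M held cells rich in cartilage transcripts. Each cell was placed by its cartilage share, the UMIs of 12 cartilage markers over those of the cartilage and 14 contractile markers, as low (under 0.3), middle, or high (over 0.7). These are ranges of a score and not cell types. Markers listed at 0 in a library add nothing to it. These were Col9a1, Col9a2, Col11a1 and Hapln1 in Apoe 4M and KO 2M, and Des in KO 4M. The score thus rests on 8 cartilage markers in Apoe 4M and KO 2M and on 12 in KO 4M. KO 4M held 82, 58 and 1437 cells of low, middle and high share, Apoe 4M 1101, 54 and 80, and KO 2M 2183, 13 and 57, while all cells of the other 5 libraries were low. In those 5, however, 8 to 10 of the 12 cartilage markers are listed at 0, so a small number of cartilage-rich cells could not have been seen. Within 0.05 of a limit lay 38, 27 and 8 cells. In KO 4M the median cell had 329.5 contractile and 29.5 cartilage UMIs in the low range and 8 and 331 in the high range.

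Every listed member was lower in cells of high share than in cells of low share in each of these libraries. In KO 4M, from low to high, Cav1 went from 655 to 185 CPM, Cavin1 from 759 to 153, Ehd2 from 207 to 61.5, Cav2 from 215 to 102 and Cavin3 from 597 to 286. Cells of high share thus held 20.2% of the Cavin1 level (18.3% to 22.3%) and 47.9% of the Cavin3 level (43.1% to 53.3%) of cells of low share. In Apoe 4M, without the knockout, Cavin1 went from 911 to 270.3 CPM, Ehd2 from 217 to 73.2, Cav1 from 401 to 249, Cav2 from 161 to 91.5 and Cavin3 from 405 to 355. Cavin2 had 409 UMIs in the low cells of Apoe 4M and 2 in the high cells (ratio 4.24%, interval 0.512% to 15.4%), and 1701 and 1 in those of KO 2M. In KO 2M Cavin1 went from 944 to 157 CPM, Cav1 from 757 to 348, Ehd2 from 200.4 to 72.5, Cav2 from 232 to 156 and Cavin3 from 649.9 to 307. Cavin1 and Ehd2 kept a smaller part of their level than Cav1, Cav2 and Cavin3 in Apoe 4M and KO 2M, although in KO 2M the intervals of Ehd2 (27.8% to 46.3%) and Cav1 (40.9% to 51.5%) overlapped. In KO 4M the order differed, since Cav1 kept 28.3% and Ehd2 29.7%. Other genes were lower too. Genes with at least 50 UMIs in the low cells numbered only 2129 in KO 4M, against 9442 in Apoe 4M and 9253 in KO 2M. The 3 libraries are thus set against unlike sets of genes. KO 4M listed 9885 genes, and most were left out by their UMIs in 82 low cells alone. Genes found mainly in its high cells are therefore missing, so its median and shares cannot stand for genes at large. Among the genes kept, the median difference on log2(CPM + 1) was -0.46 in KO 4M, -0.50 in Apoe 4M and -0.49 in KO 2M. Of them, 10.4%, 11.3% and 8.70% lay below Cavin1. Several members lay near that median: 64.1% of genes were below Cavin3 and 41.5% below Cav1 in Apoe 4M, and 47.3% below Cav2 in KO 2M. With Acta2 and Col2a1 left out of the share, Cavin3 in Apoe 4M kept 89.7% (80.2% to 100.1%).

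**Figure D5:**
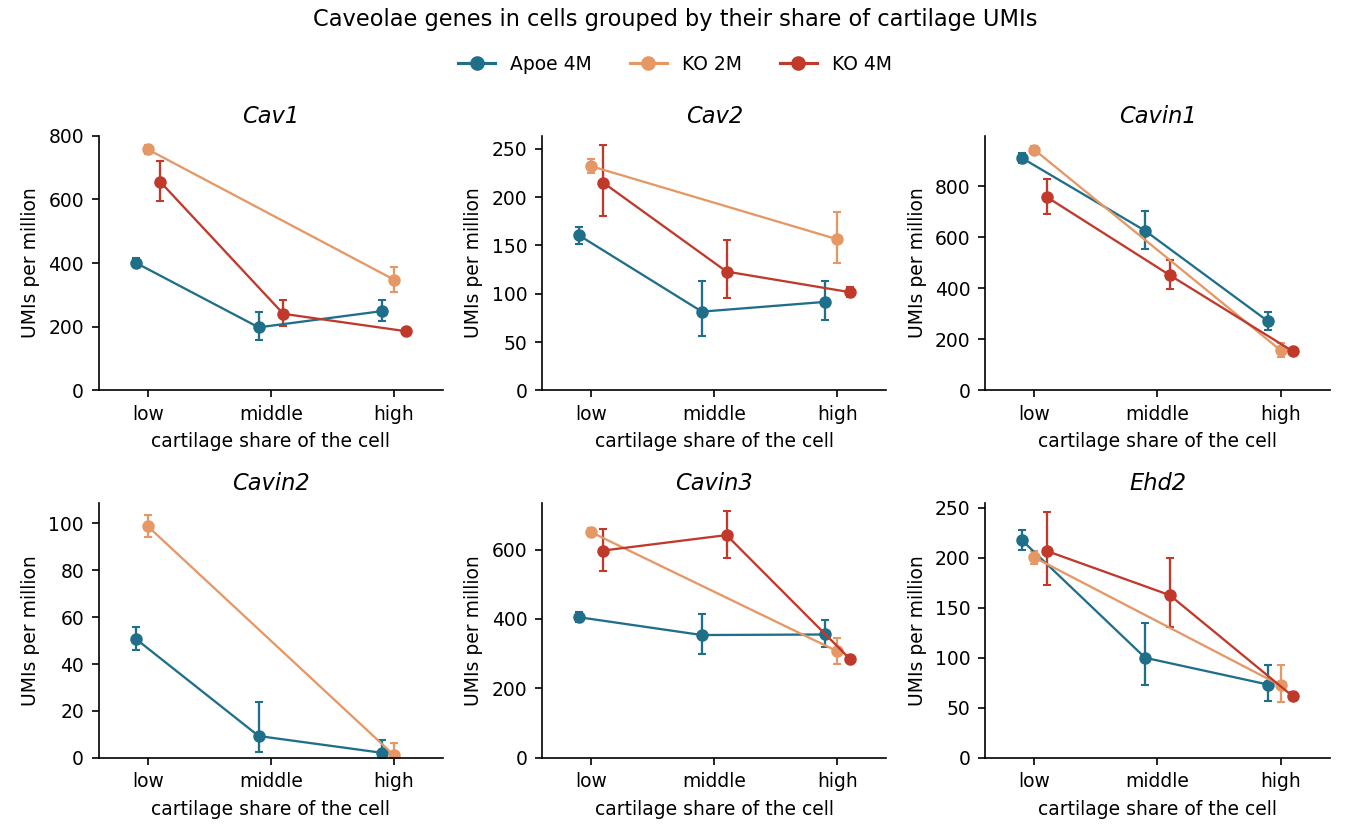
CPM (y axis) summed over the cells of low, middle and high cartilage share (x axis) in Apoe 4M (blue), KO 2M (orange) and KO 4M (red). Bars are exact Poisson 95% intervals. KO 2M has no middle value because it held 13 such cells, and Cavin2 is listed at 0 in KO 4M. Cavin1 goes from 759 to 153 in KO 4M and from 911 to 270.3 in Apoe 4M.

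With cells of low share alone, the genotypes at 4M compared otherwise than over whole libraries. In the 82 low cells of KO 4M and the 1101 of Apoe 4M, the ratio of KO to Apoe was 1.63 (1.47 to 1.81) for Cav1, against 0.540 over all cells. It was 1.34 (1.11 to 1.6) for Cav2 and 1.47 (1.32 to 1.64) for Cavin3, both above 1 where the whole libraries gave values below 1. Cavin1 was at 0.833 (0.758 to 0.913) and Ehd2 at 0.952 (0.791 to 1.14). At 2M, with 13 middle and 57 high cells left out of KO, the ratios were 1.30 for Cav1, 1.80 for Cavin2, 1.52 for Cavin3 and 0.995 for Cavin1. This comparison was added after the data were seen and has 1 library per side and no test. The low cells of KO 4M still held 1060 CPM of Col2a1 (type 2 collagen of cartilage), against 56.3 in Apoe 4M. They were also set by 12 listed cartilage markers, against 8 in Apoe 4M.

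Shares of cells with a UMI followed the levels. After each cell was thinned to 2900 UMIs, 82.3%, 81.7%, 76.3% and 60.4% of Apoe cells on ND, 1M, 2M and 4M held a Cav1 UMI, and 95.4%, 89.9%, 79.1% and 37.5% of KO cells. Unthinned, the shares were 97.2%, 97.8%, 94.7% and 82.8% in Apoe and 99.6%, 97.9%, 93.7% and 70.0% in KO, at median depths of 6966 to 10988 UMIs. Cavin1 was in 96.9% to 86.3% of thinned Apoe cells and in 97.0%, 96.1%, 89.3% and 38.2% of thinned KO cells (unthinned, 99.8% to 97.5% in Apoe and 99.7%, 98.8%, 97.9% and 71.7% in KO). Cavin2 was in 12.1% to 18.5% of thinned Apoe cells and in 25.5%, 26.4% and 23.6% of thinned KO cells up to 2M (unthinned, 24.0% to 45.8% and 61.6%, 56.5% and 46.9%). In KO 1M, 22 cells held 3 or more macrophage markers, at a median of 9714.5 UMIs against 8881.5 in its other cells. Of the 10 macrophage markers, 6 were listed in KO 1M, 2 in KO 4M, 1 each in KO ND and KO 2M, and 0 in Apoe libraries. Such cells could thus not have been seen outside KO 1M. Thinned, 59.1% of the 22 cells held a UMI of Cav1 (exact interval 36.4% to 79.3%), 50% of Cavin1 and 36.4% of Cavin3. For Cav2 and Ehd2 the share was 27.3% each, and for Cavin2 4.55%. Their level of Cav1 was 528 CPM, from 131 UMIs. The KO 4M shares of Cav1, Cavin1, Cav2 (25.4%), Ehd2 (19.5%) and Cavin3 (50.3%) all lay inside the intervals of these cells of another library, which for Cavin3 ran from 17.2% to 59.3%. Other libraries lay inside them too: for Cav1 Apoe 2M, Apoe 4M and KO 2M, and for Cavin2 every Apoe library. For Ehd2 all libraries except KO ND were inside, and for Cav2 all except Apoe ND and KO ND. For Cavin1 and Cavin3 only KO 4M was inside. Shares inside these intervals, which rest on 22 cells, are not read as above background.

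Counted per cell over the 5 members listed in every library, the thinned cells with a UMI of all 5 made up 13.8%, 12.03%, 9.36% and 7.04% of Apoe cells and 21.8%, 15.7%, 13.4% and 0.761% of KO cells. Cells with none of the 5 numbered 1 of 1415 in Apoe ND and 22 of 1235 in Apoe 4M, and in KO they were 3 of 1302 at 1M, 18 of 2253 at 2M and 240 of 1577 at 4M. The full set was thus more frequent in KO than in Apoe until 2M and least frequent in KO 4M.

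The levels ran alike over the libraries for Cav1 and Cav2, and over all 8 libraries also for Cavin1 and Ehd2. The order of the libraries still differed for Cavin1, highest in KO 1M, and Ehd2, highest in KO ND. Over the 8 libraries, log2(CPM + 1) of Cav1 and Cav2 had a Pearson r of 0.962 and Cavin1 and Ehd2 one of 0.970. Cavin1 and Cavin3 were least alike (0.692). The 8 points share the scaling of their library totals, and KO 4M sets much of these values: without it they were 0.921, 0.723 and 0.210, and Cavin1 with Ehd2 was then below Cav1 with Ehd2 (0.791), Cav2 with Cavin1 (0.786) and Cav1 with Cavin1 (0.751). Among 7994 genes listed in all libraries, 16 had a higher r with Cav1 than Cav2 had, and 27 a higher r with Cav2 than Cav1 had. With Cavin1, 118 genes had a higher r than Ehd2, and with Ehd2, 95 had a higher r than Cavin1. Cinp, Cabin1 and Def8 were most like Cav1 (r from 0.981 to 0.989) and Ctbp1, Parp1 and Otud5 most like Cav2 (0.985 to 0.991). Inafm2, Ubr7 and Pip5k1c were most like Cavin1 (0.992 to 0.997) and Glipr2, Stoml2 and Hibch most like Cavin3 (0.982 to 0.985). Ap3m1, Ptms and Scrn1 were most like Ehd2 (0.991 to 0.997). These named genes have the highest r of 7994 over 8 points, and without KO 4M their r was 0.927 to 0.990. Cavin2 is not listed in all 8 libraries and was left out here.

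Proteins that help to build or anchor caveolae were taken from a list. Of its 13 genes, 11 were tested, and 3 fell in the slope common to both genotypes against 0 that rose, where 5.4% of all genes were called lower. Bves, a membrane protein that binds caveolin 3 in muscle, fell by 0.06 ± 0.01 per month (limma adjusted p = 0.0328). It is listed at 0 at 4M in both genotypes, and its slope includes these listings as values. Src, the kinase that phosphorylates caveolin 1, fell by 0.04 ± 0.01 (adjusted p = 0.0459). Ehd1, an EHD2 relative of endosomes, fell by 0.07 ± 0.01 (adjusted p = 0.0488). The median slope of the 11 tested genes was -0.06, against -0.01 over all genes tested, which include genes seen in few cells. Within KO 9 fell and 1 rose, where 15.7% of all genes were called lower and 6.8% higher, and in limma 0 genes passed without KO 4M (1537 at an unadjusted p under 0.05). The gene that rose, Ehd3, another EHD ATPase, is named after its value was seen: it stood at 12.64, 13.0, 21.1 and 105 CPM in KO and at 13.2, 11.1, 13.5 and 27.5 in Apoe (slope within KO 0.18 ± 0.04, limma adjusted p = 0.0387). Ehd2 and Ehd3 thus moved in opposite directions within KO.

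Of 3 other raft proteins, Stom (stomatin) fell by 0.10 ± 0.02 per month in the common slope (limma adjusted p = 0.0423), from 96.7 CPM in Apoe ND to 63.7 in Apoe 4M and from 94.3 to 18.7 in KO, and Flot1 and Flot2, the flotillins, did not pass. Of 22 receptors, channels, pumps and signal proteins reported in caveolae, 18 were tested and 2 fell, again against 5.4% of all genes. Among them, Itpr1, the inositol trisphosphate receptor, fell by 0.07 ± 0.01 (limma adjusted p = 0.0425). Within KO 13 of the 18 fell and 0 rose, against 15.7% of all genes called lower and 0 without KO 4M. None of the tested genes of these 3 lists passed in the genotype effect or in the difference of slopes, while without KO 4M Itpr1 differed by -0.16 and passed as lower in KO (limma adjusted p = 0.0412). The common-slope call of Ehd1 held in 1 of 14 other settings, and those of Bves, Src, Stom and Itpr1 in 3 each.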

How the data were processed

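The authors deposited log2 values of UMIs, scaled in each cell with TMM (trimmed-mean) factors per the file names. There is a time course for each genotype and a table for each diet that holds both genotypes. UMI-tools, STAR, featureCounts and Subread (1.6.0), and the build GRCm38, are named in the submitters' processing notes, and the annotation release is not stated there. All entries (100%) scaled back to whole UMIs within 0.01. From these UMIs, CPM (UMIs per 1000000, exact Poisson intervals), shares of cells (exact Clopper-Pearson intervals) and UMI ratios were computed with Python 3.11.15, at a 95% level. No cell was removed and no doublet caller was run.

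Because the values are logs, limma 3.58.1 in R 4.3.3 was run on each library's mean log2 value, zeros included, for 9253 genes with an average share of at least 5% of cells. The diet tables gave the genotype effect (3 residual degrees of freedom). The time courses gave the common slope (5) and the slopes within genotypes and their difference (4). The error is the spread of single libraries around these models, so p-values do not measure the spread between animals. P-values were adjusted by the Benjamini-Hochberg method over all genes, with a threshold of 0.05. The fits were tested on simulated data. Thinning drew 2900 UMIs from each cell.

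The members, the 3 lists of caveolar genes and the marker lists were chosen with earlier results of these data known. List genes are named where they passed 0.05 in the common slope, the genotype effect or the difference of slopes, plus Ehd3 and except 1 gene that is not reported here, and for each member the 3 genes of highest r. List genes without a test are not analysed here. The marker lists of Schwann cells, adipocytes, fibroblasts and pericytes had 0 to 1 of 4, 2 of 5, 2 to 6 of 6 and 3 to 4 of 4 genes listed, and fibroblast markers summed to 90.3 to 517 CPM outside KO 2M (3409), Apoe 4M (3887) and KO 4M (11948). Alternatives changed the scaling, pseudocount (1 or 10), filter, table, depth, libraries and cells.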

Additional observations from a re-analysis of the deposited data

Results flagged for a closer look

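For 4 members the ratio of KO to Apoe lay on opposite sides of 1 on ND and at 4M, with exact intervals that excluded 1 on each diet. The ratio went from 2.20 to 0.540 for Cav1, from 1.21 to 0.708 for Cav2, from 1.25 to 0.773 for Cavin3 and from 1.24 to 0.352 for Ehd2. Each ratio rests on 1 library per side, and the change of the ratio between the diets was not tested for these values. The share of all genes with such a change was not counted. At 4M the median difference of 8624 genes on log2(CPM + 1) was -0.24. There 42.5% of genes lay below Cavin3, 35.9% below Cav2, 20.3% below Cav1 and 8.34% below Ehd2. Cavin3 and Cav2 were thus near the general shift of that pair. At 4M the 12 cartilage markers summed to 36849.5 CPM in KO against 4456 in Apoe.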

How the results depend on the processing

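Of the 9253 genes, 14 passed in the genotype effect, against 5 with log2(CPM + 1), 4 with trimmed-mean factors, 0 with log2(CPM + 10) and 240 without KO 4M, and 0 to 240 when a diet was left out. Members passing numbered 0 in that comparison, against 1 without KO 4M and 0 to 1 when a diet was left out. With diet as a factor, the genotype fit without KO 4M is the same fit as without both 4M libraries, so it counts as 1 alternative. For the common slope 514 genes and 2 members passed. These became 1 and 0 with log2(CPM + 1), 0 and 0 with trimmed-mean factors, 9 and 0 with log2(CPM + 10), 1 and 0 with thinned cells, 1346 and 6 with the diet tables, 352 and 1 without KO 4M, and 0 and 0 with the rank of the diet, with high fat diet against ND, and with each diet left out. For the difference of slopes 0 genes passed, against 4 with high fat diet against ND and 0 to 7 with a diet left out. Within Apoe 0 genes passed, against 1 without KO 4M and 3 with high fat diet against ND. Within KO 2084 genes and 6 members passed, against 804 genes with thinned cells, 0 and 0 without KO 4M, 87 and 2 with the rank of the diet, 1 and 0 with high fat diet against ND, and 0 to 3060 genes and 0 to 6 members with a diet left out. Leaving out a diet leaves fewer libraries, and for the other settings the cause was not tested.

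In cells of low cartilage share alone, an alternative added after the data were seen, the 4M ratio of KO to Apoe turned from below to above 1 for Cav1 (1.63), Cav2 (1.34) and Cavin3 (1.47). Ratios without the most abundant genes in the total kept their side of 1 wherever the interval excluded it. All slopes of the members within KO and within Apoe stayed below 0 in the 14 alternatives each. The genotype effect is itself paired by diet, since diet is a factor of its fit, and there are no replicate numbers to pair. In the common slope 1 gene passed with thinned cells, and 1 with log2(CPM + 1) without thinning. The thinned cells also had another scaling than the deposited values, so the part of depth by itself was not tested. Each genotype and diet has 1 library.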
